A study of Mus musculus with 18 samples.

Results

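The interleukin-1 (IL-1) family is described here by 9 genes of the 18585 in the deposited table. They are the ligands Il1a, Il1b, Il18 and Il33, the antagonist Il1rn, the receptors Il1r1, Il1r2 and Il1rl1, and the shared receptor subunit Il1rap. They were chosen by symbol, with earlier results of these data known. All 9 passed the filter on low values (at least 10 normalized counts in at least 4 libraries) and are among the 13809 genes tested. The values come from CEL-seq of RNA of C57BL/6 forepaws, a method that reads each RNA from a tag near its 3' end. There were 4 groups, of 5 Sema3b-/- arthritis, 4 Sema3b-/- control, 5 WT arthritis and 4 WT control libraries. Sema3b-/- mice lack Sema3b, a secreted class 3 semaphorin, and WT mice are wild type. The labels give strain, genotype, treatment and tissue. They do not name the arthritis model, its duration, the animals' age or which part of Sema3b is deleted. The comparisons ask which family members differ between arthritic and control paws of each genotype, and whether loss of Sema3b changes them.

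IL-1 alpha and IL-1 beta are cytokines that start and amplify inflammation by binding the receptor encoded by Il1r1, which signals only when it pairs with the subunit encoded by Il1rap. The antagonist encoded by Il1rn occupies the same receptor without signalling, and the product of Il1r2 is a decoy that captures IL-1 without passing on a signal. IL-18 has a separate receptor, and IL-33, a nuclear protein released from damaged barrier and stromal cells, signals through ST2, encoded by Il1rl1, together with the same Il1rap subunit. IL-1 beta and IL-18 are made as inactive precursors that caspase-1 cuts, and IL-1 blockade is used in some inflammatory joint diseases. RNA levels do not show how much active cytokine was made.

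On mm10, whose coordinates are those of GRCm38, Il1a (ENSMUSG00000027399.1, chromosome 2, 129299610 to 129309972, minus strand) and Il1b (ENSMUSG00000027398.13, chromosome 2, 129364570 to 129371139, minus strand) are neighbours separated by 54597 bp. Il1rn lies elsewhere on chromosome 2, at 24336853 to 24351494 on the plus strand. Il1r2 (40074079 to 40125231), Il1r1 (40225080 to 40317257) and Il1rl1 (40429570 to 40465415) belong to a cluster of 6 receptor genes on the plus strand of chromosome 1 that spans 477627 bp and also holds Il1rl2, Il18r1 and Il18rap. Il1rap is on chromosome 16 (26581704 to 26730117), Il18 on chromosome 9 (50554827 to 50581840) and Il33 on chromosome 19 (29925114 to 29960718), all on the plus strand. The annotated coding transcripts of Il1rl1 end up to 24008 bp apart, with the membrane and the soluble form of ST2 made from different transcripts, and the table gives 1 value per gene, so the forms cannot be told apart.

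Because several members were higher together in arthritic paws, their promoters are shown for Il1b and for 3 members whose windows hold a motif match. Windows run from 250 bases before to 50 after a RefSeq transcript start on GRCm38.p6, are written 5' to 3' on the gene's strand in lower case, and have motif matches in capitals. Il1b is shown as chr2:129371090-129371389 (minus strand) and Il1rn as the first of its annotated starts, chr2:24336610-24336909 (plus strand). Il33 is shown as the second of its annotated starts, chr19:29945540-29945839 (plus strand), and Il1rl1 as the first of its starts, chr1:40429320-40429619 (plus strand).
Il1b: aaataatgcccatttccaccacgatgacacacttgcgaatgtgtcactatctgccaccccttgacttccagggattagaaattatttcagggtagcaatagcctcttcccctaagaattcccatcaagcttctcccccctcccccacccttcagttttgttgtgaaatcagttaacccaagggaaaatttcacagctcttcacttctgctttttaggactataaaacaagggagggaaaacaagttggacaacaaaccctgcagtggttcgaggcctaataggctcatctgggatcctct
Il1rn: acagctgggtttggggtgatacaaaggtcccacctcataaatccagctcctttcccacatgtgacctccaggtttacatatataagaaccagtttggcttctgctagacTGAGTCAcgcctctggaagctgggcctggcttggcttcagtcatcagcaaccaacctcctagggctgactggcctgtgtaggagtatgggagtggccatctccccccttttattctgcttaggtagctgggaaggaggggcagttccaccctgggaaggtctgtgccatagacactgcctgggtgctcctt
Il33: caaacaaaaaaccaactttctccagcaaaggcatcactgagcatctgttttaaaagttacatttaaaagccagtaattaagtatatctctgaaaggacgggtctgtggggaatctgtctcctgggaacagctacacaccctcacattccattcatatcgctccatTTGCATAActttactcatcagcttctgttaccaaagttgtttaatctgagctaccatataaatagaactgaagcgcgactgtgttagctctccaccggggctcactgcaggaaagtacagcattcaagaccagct
Il1rl1: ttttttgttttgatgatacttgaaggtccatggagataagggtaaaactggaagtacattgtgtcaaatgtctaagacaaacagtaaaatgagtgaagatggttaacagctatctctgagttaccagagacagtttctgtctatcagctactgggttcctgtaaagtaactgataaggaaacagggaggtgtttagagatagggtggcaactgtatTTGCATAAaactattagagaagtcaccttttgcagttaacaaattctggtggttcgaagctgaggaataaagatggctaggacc

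In these windows, both strands were searched for the NF-kB motif, the AP-1 motif TGANTCA and the C/EBP motif TTGCNNAA, and no match overlapped another. The shares of all 32851 RefSeq promoter windows with a match were 8.46% for NF-kB, 7.81% for AP-1 and 10.8% for C/EBP. All 9 members had a window, 14 in all. The window shown for Il1rn held the AP-1 match TGAGTCA with its first base at position -141 from the start, and Il1a held TGACTCA at -12. The windows shown for Il33 and Il1rl1 each held the C/EBP match TTGCATAA, at -85 and -34. Il1r1 had a C/EBP match in the window of its first start and an NF-kB match in that of its second. The windows of Il1b, Il1r2, Il1rap and Il18, and those of the other annotated starts of Il1rn, Il33 and Il1rl1, held none of these letters.

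The libraries had 1732783 to 19464892 total reads, with the fewest in Sema3b-/- control replicate 1, where 3 reads, the most that a count of 0 allows, are 12.1 normalized counts. Sema3b was at 1.29 ± 1.48 normalized counts in Sema3b-/- arthritis, 2.95 ± 3.03 in Sema3b-/- control, 44.4 ± 16.5 in WT arthritis and 55.9 ± 10.8 in WT control (SD, n = 5, 4, 5 and 4). Sex, which the labels do not give, was read from Xist and Y-linked genes: 4 of 5 Sema3b-/- arthritis, 2 of 4 Sema3b-/- control, 1 of 5 WT arthritis and 4 of 4 WT control libraries were female. The titles of all control libraries carry one prefix and those of arthritis libraries carry others, so arthritis and anything that goes with the titles cannot be told apart. Epidermal and muscle markers spread widely and leaned lower in arthritis. Summed keratinocyte markers ranged from 3072 to 96171 normalized counts in Sema3b-/- arthritis and 65034 to 342896 in Sema3b-/- control. WT arthritis had 2926 to 113751 and WT control 72907 to 116103. Summed skeletal muscle markers ranged from 5910 to 52347 in Sema3b-/- arthritis, below all Sema3b-/- control libraries at 56053 to 146284. They were at 5523 to 105844 in WT arthritis and 54705 to 75882 in WT control. None of the 8 keratinocyte and 6 muscle markers had a positive log2 fold change of arthritis over control in either genotype. In whole paws, fewer cells of a type and less RNA per cell cannot be told apart.

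**Figure D1:**
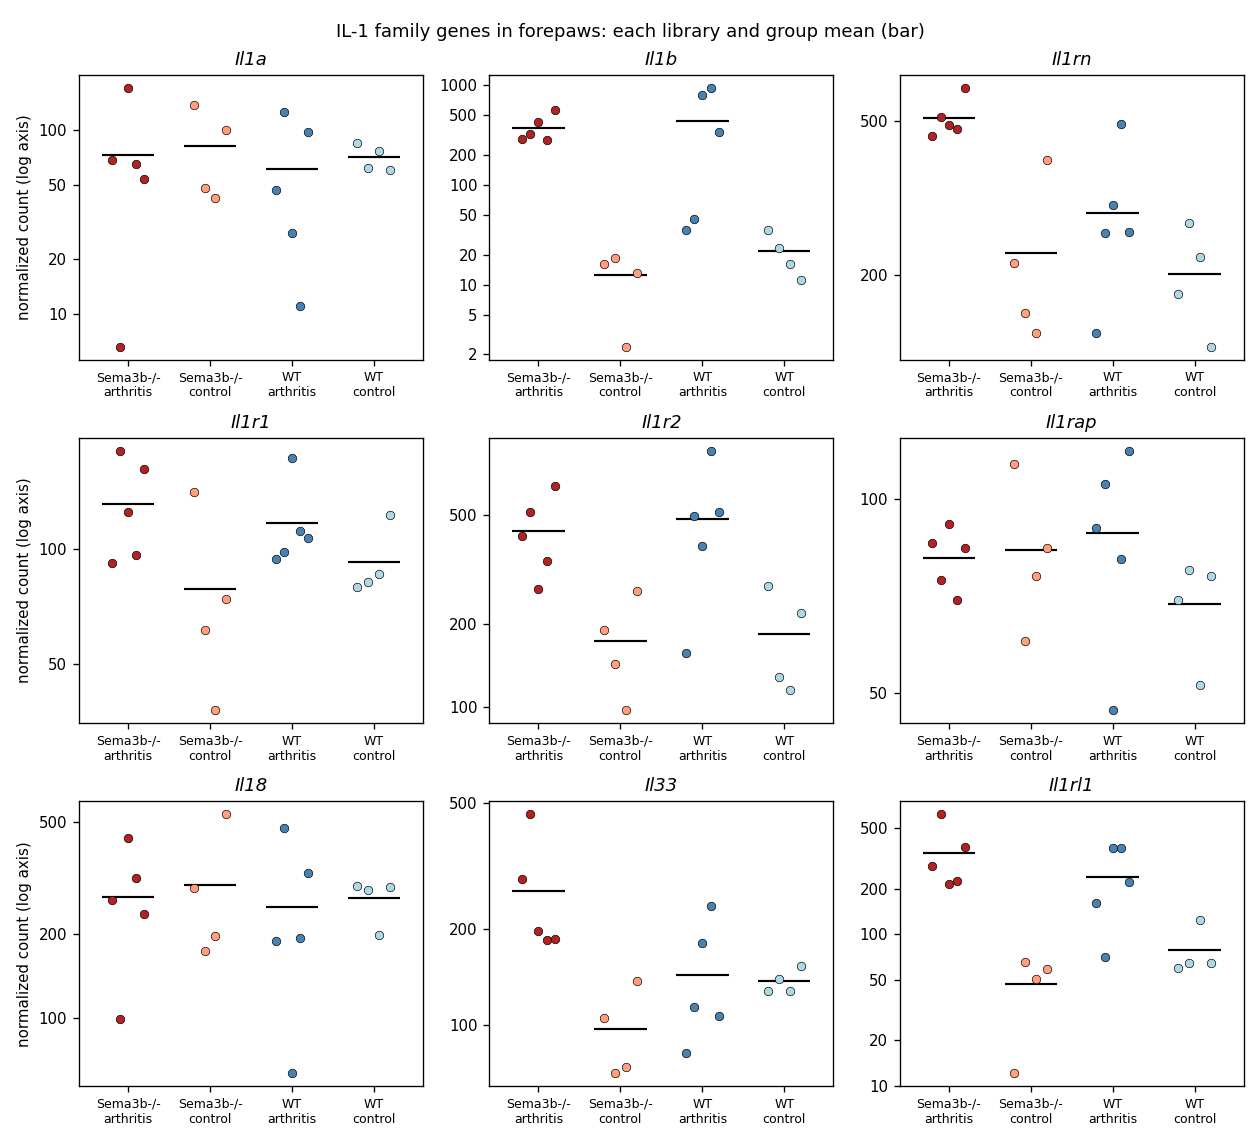
Normalized count of each of the 9 genes (log axis) in every library, by group; points are libraries in replicate order and bars are group means. Il1b, Il1rn, Il1r2, Il33 and Il1rl1 are higher in all 5 Sema3b-/- arthritis libraries than in all 4 Sema3b-/- control libraries, while Il1b in WT arthritis falls into 3 high and 2 low libraries.

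In Sema3b-/- paws, 5 of the 9 genes rose in arthritis: Il1b, Il1rl1, Il33, Il1r2 and Il1rn. A call here is an adjusted p under 0.05 in limma, Benjamini-Hochberg adjusted over all 13809 genes tested. None of the 9 was called lower, and in each of the 5 the arthritis and control libraries did not overlap. Of all tested genes, 12.4% were called in this comparison and 6.84% were called higher. Groups that did not overlap, with arthritis higher, occurred in 7.13% of them. The median log2 fold change was 1.27 over the 9 members and -0.01 over all tested genes. In WT paws, 1 of the 9, Il1b, was called, against a background of 4.21% of tested genes called and 2.64% called higher. The median was 0.32 over the members and -0.02 over all tested genes. Il1b was also the only member whose WT groups did not overlap, against 5.82% of tested genes with arthritis higher. Its lowest arthritis value and highest control value were nearly equal, at 35.5 and 35.4 normalized counts.

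Among the ligands, Il1b had the largest fold change of the 9 in both genotypes. In Sema3b-/- arthritis it was at 285, 325, 423, 281 and 556 normalized counts, against 16.2, 18.4, 2.37 and 13.2 in Sema3b-/- control. The lowest arthritis library was far above the highest control library. The group means were 374 ± 117 in Sema3b-/- arthritis and 12.5 ± 7.11 in Sema3b-/- control (SD, n = 5 and 4), a log2 difference of 5.01 (SE 0.88, limma adjusted p = 0.003048), which is 32.2-fold on the scale of log2(normalized count + 1). The control values rest on 2 to 33 reads per library.

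In WT arthritis, Il1b was at 35.5, 45.8, 801, 937 and 339 normalized counts, against 35.4, 23.5, 15.9 and 11.1 in WT control. Replicates 3 to 5 were high, while replicates 1 and 2 were close to the highest control library. The means were 432 ± 420 in WT arthritis and 21.5 ± 10.6 in WT control (SD, n = 5 and 4), and the log2 fold change was 3.37 (SE 0.88, limma adjusted p = 0.0436). This call ended when any of 12 single libraries was left out (adjusted p up to 0.121), namely all 4 WT control libraries, replicates 3 to 5 of WT arthritis, replicate 2 of Sema3b-/- control and replicates 1, 3, 4 and 5 of Sema3b-/- arthritis. It also ended with total read scaling, with no filter, with only the WT groups in the fit (adjusted p = 0.133) and with a term for sex in the model, where the log2 fold change of Il1b was 2.68 (adjusted p = 0.263). In Sema3b-/- paws the Il1b call held with the sex term, at 5.26 (adjusted p = 0.00305).

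Il1a, the other agonist of the same receptor, was called in neither genotype. It was at 68.7, 6.63, 170, 65.3 and 54.2 normalized counts in Sema3b-/- arthritis, against 138, 48.6, 42.7 and 100.7 in Sema3b-/- control. In WT arthritis it was at 47.3, 125, 27.6, 11.1 and 98.2, against 85.1, 62.3, 76.9 and 60.5 in WT control. The groups overlapped in both genotypes, and the arthritis libraries spread over a wider range than the controls. The log2 fold changes were -0.55 (SE 0.77, limma adjusted p = 0.674) in Sema3b-/- and -0.63 (SE 0.77, adjusted p = 0.659) in WT paws, with 95% intervals of -2.18 to 1.07 and -2.26 to 0.99.

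The lowest Il1a values were found in arthritis libraries with few keratinocyte transcripts. Il1a was at 6.63 in Sema3b-/- arthritis replicate 2, 11.1 in WT arthritis replicate 4 and 27.6 in WT arthritis replicate 3, where the 8 keratinocyte markers summed to 3072, 14140 and 2926 normalized counts. These are the 3 lowest keratinocyte sums of the 18 libraries. None of the 8 keratinocyte markers was called in either genotype, and their part in the Il1a values was not tested.

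Il18, whose precursor is stored in epithelial cells and macrophages, was at 264, 98.6, 439, 316 and 235 normalized counts in Sema3b-/- arthritis, against 291, 173, 196 and 535 in Sema3b-/- control. WT arthritis had 188, 475, 63.2, 192 and 330, against 296, 285, 197 and 293 in WT control. The groups overlapped in both genotypes, and the 2 lowest values of the series were again those of WT arthritis replicate 3 and Sema3b-/- arthritis replicate 2. The log2 fold changes were -0.15 (SE 0.51, limma adjusted p = 0.879) in Sema3b-/- and -0.37 (SE 0.51, adjusted p = 0.712) in WT paws. Their 95% intervals, -1.23 to 0.94 and -1.45 to 0.72, leave room for changes of either sign.

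Il33, the alarmin read by ST2, was at 289, 461, 197, 186 and 186 normalized counts in Sema3b-/- arthritis, against 105, 70.4, 73.6 and 138 in Sema3b-/- control. Every arthritis library was above every control library. The means were 264 ± 119 in Sema3b-/- arthritis and 96.8 ± 31.6 in Sema3b-/- control (SD, n = 5 and 4), a log2 difference of 1.39 (SE 0.31, limma adjusted p = 0.008765). In WT arthritis Il33 was at 81.3, 114, 182, 236 and 107, against 128, 140, 128 and 153 in WT control. Here 3 arthritis libraries lay below all controls and 2 above them. The WT log2 fold change was -0.03 (SE 0.31, adjusted p = 0.963), with a 95% interval of -0.69 to 0.62.

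Il1rn, the receptor antagonist, was at 457, 512, 487, 477 and 608 normalized counts in Sema3b-/- arthritis, against 214, 160, 141 and 397 in Sema3b-/- control. The 5 arthritis libraries lay close together (508 ± 59.3, SD) and above all controls (228 ± 117, SD, n = 4). The log2 fold change was 1.27 (SE 0.32, limma adjusted p = 0.0163). The call ended without Sema3b-/- control replicate 3 (adjusted p = 0.0588). In WT arthritis Il1rn was at 142, 256, 302, 491 and 258, against 179, 272, 222 and 130 in WT control, with overlapping groups and a log2 difference of 0.47 (SE 0.32, adjusted p = 0.402).

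Il1rn and Il1b are an antagonist and agonist of the same receptor, and their ratio within a library was set beside the groups as a description. Because both values come from 1 library, the ratio is free of that library's scaling, but it compares 3' tags of different genes and is read only between libraries. Il1rn over Il1b was 1.09 to 1.69 in Sema3b-/- arthritis (median 1.57), against 8.67 to 59.5 in Sema3b-/- control (median 21.7). The 59.5 is from Sema3b-/- control replicate 3 and rests on 2 Il1b reads. In WT arthritis it ran from 0.377 to 5.59 (median 0.761), against 5.06 to 13.9 in WT control (median 11.7). The ratio was thus lower in every Sema3b-/- arthritis library than in any control library, and in WT arthritis only replicate 2, at 5.59, reached into the control range, with replicate 1 at 4.00.

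Il1b over Il1a, the 2 agonists, was 2.49 to 49.0 in Sema3b-/- arthritis (median 4.31), against 0.0556 to 0.379 in Sema3b-/- control (median 0.124). The 0.0556 rests on the same 2 Il1b reads of Sema3b-/- control replicate 3. It was 0.367 to 84.8 in WT arthritis (median 3.45), against 0.183 to 0.416 in WT control (median 0.292). The highest ratios, 49.0 in Sema3b-/- arthritis replicate 2 and 84.8 in WT arthritis replicate 4, came from the libraries with the lowest Il1a.

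**Figure D2:**
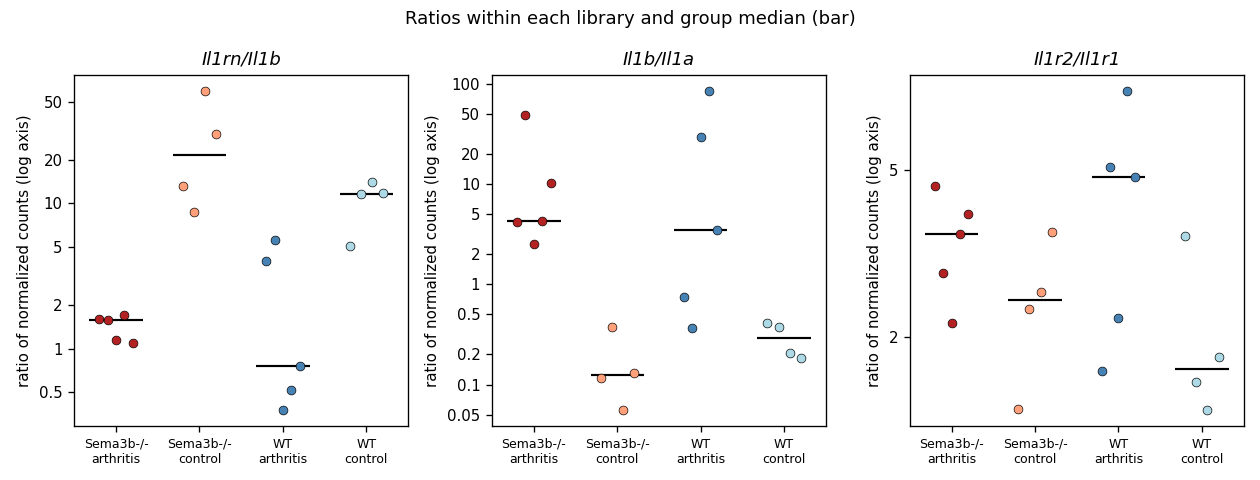
Ratios of normalized counts within each library (log axes) for Il1rn over Il1b, Il1b over Il1a and Il1r2 over Il1r1, by group; points are libraries and bars are group medians. The Il1rn over Il1b ratio is 1.09 to 1.69 in Sema3b-/- arthritis and 8.67 to 59.5 in Sema3b-/- control, where the 59.5 rests on 2 Il1b reads. It spreads from 0.377 to 5.59 in WT arthritis.

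Among the receptors of IL-1 itself, the decoy Il1r2 rose in Sema3b-/- paws. It was at 421, 515, 270, 341 and 638 normalized counts in Sema3b-/- arthritis, against 190, 143, 97.4 and 264 in Sema3b-/- control. The groups did not overlap, although the lowest arthritis value and the highest control value were 270 and 264. The log2 fold change was 1.36 (SE 0.42, limma adjusted p = 0.0458). In WT arthritis it was at 157, 499, 385, 859 and 515, against 276, 128, 115 and 220 in WT control. Replicate 1 lay among the controls and the other 4 above them, and the log2 fold change of 1.28 (SE 0.42, adjusted p = 0.0975) did not pass.

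The Il1r2 call in Sema3b-/- paws ended without any 1 of 12 libraries (adjusted p up to 0.135), namely replicates 1, 2, 4 and 5 of Sema3b-/- arthritis, 1 to 3 of Sema3b-/- control, 2, 3 and 5 of WT arthritis and 2 and 4 of WT control. It also ended with total read scaling, with no filter and with the replicate block (adjusted p = 0.0514, 0.0534 and 0.0716). The WT value passed without WT arthritis replicate 1 (adjusted p = 0.013). The effects in the 2 genotypes differed by 0.08 on the log2 scale (95% interval -1.19 to 1.34).

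Il1r1, the signalling receptor, was at 92.0, 181, 126, 96.7 and 163 normalized counts in Sema3b-/- arthritis, against 142, 61.5, 38.0 and 74.4 in Sema3b-/- control. Control replicate 1, the library with the fewest reads, lay among the arthritis libraries and the other 3 controls below all of them. The log2 fold change was 0.84 (SE 0.31, limma adjusted p = 0.0782), and without that control replicate it passed (log2 fold change 1.17, adjusted p = 0.0147). In WT arthritis Il1r1 was at 94.6, 98.6, 174, 111 and 107, against 79.6, 82.1, 86.3 and 123 in WT control, a log2 difference of 0.32 (SE 0.31, adjusted p = 0.566). The Il1r2 over Il1r1 ratio was 2.15 to 4.58 in Sema3b-/- arthritis, 1.34 to 3.55 in Sema3b-/- control, while WT arthritis had 1.66 to 7.71 and WT control 1.34 to 3.47, with overlap in both genotypes.

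Il1rap, the subunit shared by the IL-1 and IL-33 receptors, was at 69.7 to 91.5 normalized counts in Sema3b-/- arthritis (median 84.0), against 60.3 to 113 in Sema3b-/- control (median 80.0). WT arthritis had 47.1 to 119 (median 90.2), against 51.6 to 77.6 in WT control (median 72.8). The log2 fold changes were -0.01 (95% interval -0.51 to 0.49, limma adjusted p = 0.984) in Sema3b-/- and 0.31 (-0.19 to 0.82, adjusted p = 0.465) in WT paws. These intervals bound any change at less than 1 on the log2 scale in either direction.

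Il1rl1, which encodes the IL-33 receptor ST2, had the second largest fold change of the 9. It was at 282, 620, 214, 223 and 377 normalized counts in Sema3b-/- arthritis, against 12.1, 65.4, 51.1 and 58.8 in Sema3b-/- control. All arthritis libraries were above all controls, the lowest of which holds 3 reads. The means were 343 ± 168 in Sema3b-/- arthritis and 46.8 ± 23.9 in Sema3b-/- control (SD, n = 5 and 4), a log2 difference of 2.97 (SE 0.52, limma adjusted p = 0.002882). In WT arthritis it was at 161, 71.1, 370, 369 and 221, against 59.7, 65.0, 125 and 64.8 in WT control. Replicate 2 lay within the control range and the other 4 above it. The WT log2 fold change of 1.43 (SE 0.52, adjusted p = 0.132) did not pass, and did so without WT arthritis replicate 2 (adjusted p = 0.0311).

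Ligand and receptor of the IL-33 pathway were thus both higher in Sema3b-/- arthritis than in Sema3b-/- control. Il1rl1 over Il33 was 0.978 to 2.03 in Sema3b-/- arthritis (median 1.20), against 0.115 to 0.929 in Sema3b-/- control (median 0.560). In WT arthritis it was 0.622 to 2.08 (median 1.98), against 0.422 to 0.978 in WT control (median 0.465). The calls of Il1b, Il1rl1 and Il33 in Sema3b-/- paws held without each single library and under each other setting tried.

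**Figure D3:**
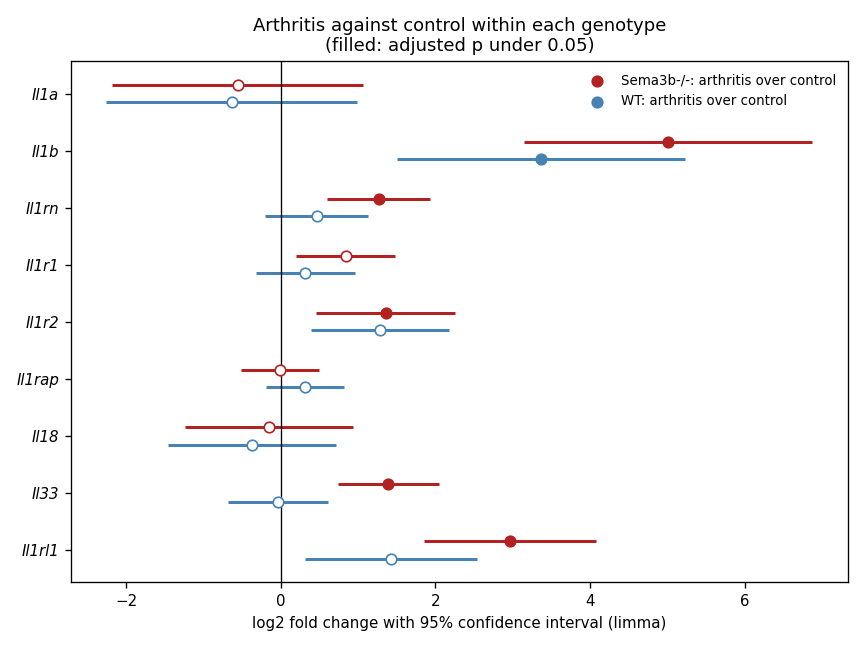
Log2 fold change of arthritis over control (points) with 95% confidence intervals from limma (lines) for the 9 genes, in Sema3b-/- paws (red) and WT paws (blue); filled points have an adjusted p under 0.05. Il1b, Il1rn, Il1r2, Il33 and Il1rl1 are filled in Sema3b-/- paws and Il1b in WT paws, with Il33 at 1.39 in Sema3b-/- and -0.03 in WT.

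Over both genotypes together, 5 members rose with arthritis, against 23.5% of tested genes called and 12.6% called higher. These were Il1b (log2 fold change 4.19, limma adjusted p = 0.000353), Il1rl1 (2.20), Il1r2 (1.318), Il1rn (0.87) and Il33 (0.68, adjusted p = 0.0324). Il1r1 was at 0.58 (adjusted p = 0.0591). The Il33 call ended without any 1 of 9 libraries (adjusted p up to 0.0654), namely replicates 1 and 2 of Sema3b-/- arthritis, 2 and 3 of Sema3b-/- control, 3 and 4 of WT arthritis and 1 to 3 of WT control.

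In the authors' deposited table, 3 of the 9 had an adjusted p under 0.05 in Sema3b-/- arthritis over Sema3b-/- control, where 7.00% of its genes with an adjusted p did. These were Il1b (log2 fold change 4.91), Il1rl1 (2.81) and Il33 (1.46). The authors' deposited table gave Il1rn 1.16 (adjusted p = 0.0528) and Il1r2 1.34 (adjusted p = 0.0648) in the same comparison. In WT arthritis over WT control, the authors' deposited table gave Il1b 4.33 (adjusted p = 0.0112) and no other member under 0.05, against 4.84% of its genes with an adjusted p.

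The difference in the arthritis effect between genotypes was tested directly as an interaction. None of the 9 members and none of the 13809 genes tested passed in limma (0.0% called), with 1 member and 663 genes at an unadjusted p under 0.05. No member passed with edgeR or DESeq2 on recovered reads, where 0 and 8 genes did. The member was Il33, with an interaction of 1.43 on the log2 scale (SE 0.44, 95% interval 0.51 to 2.35, limma adjusted p = 0.974). Il1b was at 1.64 (95% interval -0.996 to 4.28) and Il1rl1 at 1.54 (-0.03 to 3.11). That 5 members were called in 1 genotype and 1 in the other therefore does not show that the genotypes responded differently. The 2 arthritis effects and the 2 genotype effects use the same 4 groups and are not independent of each other.

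Between arthritic paws of the 2 genotypes, no member passed, and 0.0217% of tested genes did. With limma, 2 members and 1239 genes had an unadjusted p under 0.05. The count of members was also 0 with edgeR and DESeq2. The 2 members were Il1rn, at 508 ± 59.3 normalized counts in Sema3b-/- arthritis and 290 ± 127 in WT arthritis (SD, n = 5 each), and Il33, at 264 ± 119 in Sema3b-/- arthritis and 144 ± 63.6 in WT arthritis. Il1rn was 0.91 higher on the log2 scale (95% interval 0.28 to 1.54, limma adjusted p = 0.375) and Il33 0.88 (0.26 to 1.49, adjusted p = 0.388). For Il1rn, all 5 Sema3b-/- arthritis libraries lay above 4 of the 5 WT arthritis libraries, and 2 lay above the highest, at 491. With a term for the 2 forms of the arthritis titles, which are split 3 and 2 in Sema3b-/- and 4 and 1 in WT, Il1rn was at 0.93 and Il33 at 0.80. With a sex term Il1rn was at 0.96 (adjusted p = 0.317) and Il33 at 0.78 (adjusted p = 0.395).

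The intervals of the other 7 members between arthritic paws all include 0. Il1b was at 374 ± 117 in Sema3b-/- arthritis and 432 ± 420 in WT arthritis. Its log2 difference of 0.77 had a 95% interval of -0.99 to 2.53 and turned to -0.21 with edgeR and with DESeq2. In the authors' deposited table it was also -0.21. Il1rl1 was at 0.63 (-0.41 to 1.68), Il18 at 0.25 (-0.78 to 1.27), Il1r1 at 0.15 (-0.45 to 0.76), Il1a at 0.14 (-1.39 to 1.66), Il1r2 at -0.01 (-0.86 to 0.83) and Il1rap at -0.07 (-0.54 to 0.41), given as log2 differences with 95% intervals. For Il1a this interval includes differences of more than 2-fold in either direction, so a difference of that size was not detectable here.

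In control paws, 0.0145% of tested genes were called in limma for Sema3b-/- against WT and no member was. None of the 9 members had an unadjusted p under 0.05 (811 genes did), and edgeR and DESeq2 called none. The lowest adjusted p was 0.868, for Il33. Il33 was at 96.8 ± 31.6 normalized counts in Sema3b-/- control and 137 ± 12.2 in WT control, a log2 difference of -0.55 (95% interval -1.24 to 0.14). Il1rl1 was at 46.8 ± 23.9 in Sema3b-/- control and 78.6 ± 30.9 in WT control, a difference of -0.90 (-2.07 to 0.27). Il1b was at 12.5 ± 7.11 in Sema3b-/- control and 21.5 ± 10.6 in WT control, a difference of -0.88 (-2.85 to 1.09). Over both treatments together no member passed either (0.0652% of tested genes called), with Il1rn at 0.51 (unadjusted p = 0.0348, adjusted p = 0.488) the only member with an unadjusted p under 0.05. In limma, 1285 genes had one.

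**Figure D4:**
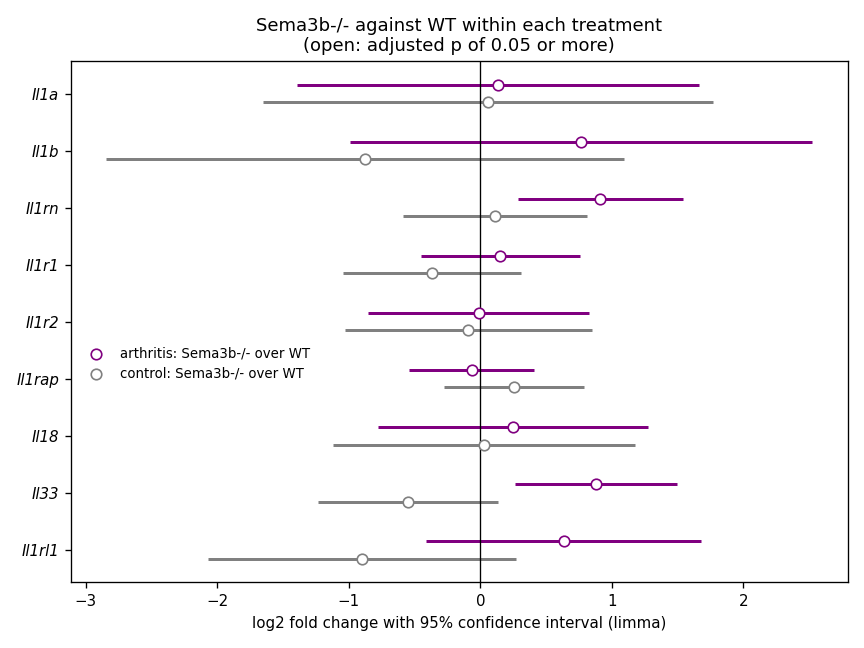
Log2 fold change of Sema3b-/- over WT (points) with 95% confidence intervals from limma (lines) for the 9 genes, in arthritic paws (purple) and control paws (grey); open points have an adjusted p of 0.05 or more. All points are open, and the intervals of Il1rn (0.28 to 1.54) and Il33 (0.26 to 1.49) in arthritic paws are the only ones that lie wholly above 0.

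Other genes of the pathway were read from lists chosen with earlier results of these data known. Their calls are those of the main fit and were not checked under the other settings. The IL-36 ligands and their antagonist, made mainly by epithelium, were all tested. None of Il36a, Il36b, Il36g, Il36rn and Il1f10, listed in the table as Il1f6, Il1f8, Il1f9, Il1f5 and Il1f10, was called in either arthritis comparison. The list median was -0.28 in Sema3b-/- and -0.85 in WT paws. Il1f6, with the lowest p of the list in Sema3b-/- paws, had a log2 fold change of -1.51 there (limma adjusted p = 0.465), followed by Il1f5 at -1.03 and Il1f9 at 0.16. Il1f6 ranged from 1.90 to 367 normalized counts in Sema3b-/- arthritis, 166 to 580 in Sema3b-/- control, while WT arthritis had 10.3 to 601 and WT control 222 to 344, and the groups overlapped in both genotypes.

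Of the 7 listed receptors and binding proteins outside the 9 genes, 6 are in the table and 2 passed the filter, with neither called in the arthritis comparisons. Il18bp, a soluble protein that binds and neutralises IL-18, was at 62.1 ± 19.4 normalized counts in Sema3b-/- arthritis, 22.2 ± 9.86 in Sema3b-/- control, 59.7 ± 40.3 in WT arthritis and 40.9 ± 8.39 in WT control (SD). Its log2 fold change was 1.47 in Sema3b-/- paws (limma adjusted p = 0.160) and -0.05 in WT paws. Sigirr, a receptor that dampens IL-1 and Toll-like receptor signalling, was at -0.54 and -0.17. The IL-36 receptor Il1rl2 and the IL-18 receptor subunits Il18r1 and Il18rap were at group means of 0 to 8.36 normalized counts and were not tested.

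The machinery that senses danger and cuts IL-1 beta and IL-18 included more members that rose. Of 11 tested inflammasome and processing genes, 6 rose in Sema3b-/- arthritis and none fell, where 6.84% of all tested genes were called higher. The list median was 1.28, against -0.01 over all tested genes. Mefv, which encodes the sensor pyrin, was at 48.3 to 123 normalized counts in Sema3b-/- arthritis, against 1.20 to 8.31 in Sema3b-/- control, a log2 fold change of 3.85 (limma adjusted p = 0.000903). Naip2 and Naip5, sensors of bacterial proteins that act with Nlrc4, rose by 1.66 and 1.60 on the log2 scale and have near copies from which reads may be shared. Casp4, the caspase of the non-canonical inflammasome, rose by 1.33, and Aim2, a sensor of cytosolic DNA, by 1.28. Gsdmd, which forms the pore through which IL-1 beta leaves the cell, rose by 0.91. Aim2 was low, at 16.8 to 30.2 normalized counts in Sema3b-/- arthritis, against 3.60 to 16.6 in Sema3b-/- control. In WT control Aim2 was at 11.1 to 22.6.

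In WT arthritis, 2 of these 11 rose, against 2.64% of all tested genes, with a list median of 0.88. Mefv was at 14.8 to 82.8 normalized counts in WT arthritis, against 0.902 to 10.3 in WT control (log2 fold change 2.41, limma adjusted p = 0.0252). Casp4 was at 45.8 to 121 in WT arthritis, against 21.0 to 31.5 in WT control (1.56, adjusted p = 0.0135). Casp1, the protease that matures IL-1 beta, was not called in Sema3b-/- paws (0.58, adjusted p = 0.153) or in WT paws (-0.12). Pycard, the adaptor ASC, was at -0.07 and -0.11, and Nlrp3, at group means of 8.08 to 25.2 normalized counts, had 1.72 and 0.88 without passing.

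Of the 14 genes listed for signalling downstream of the receptors, most were not called. In Sema3b-/- paws 1 was called higher and 2 lower, where 12.4% of all tested genes were called and 6.84% called higher. In Sema3b-/- arthritis Irak4, the kinase recruited first by the adaptor Myd88, rose by 0.86 on the log2 scale (limma adjusted p = 0.0101), with 92.4 to 124 normalized counts against 43.9 to 71.5 in Sema3b-/- control. Rela, an NF-kB subunit, fell by 0.46 (adjusted p = 0.0269), and Tab1, a partner of the kinase Map3k7, fell by 0.87 (adjusted p = 0.0411). The list median was 0.04. None of the 14 was called in WT arthritis, where the median was 0.00256 and the lowest adjusted p among these 3 was that of Rela (log2 fold change -0.40, adjusted p = 0.0835).

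Genes known to be induced by IL-1 in stromal cells held the largest folds of these lists. Of 16 tested, 8 rose in Sema3b-/- arthritis and none fell, against 6.84% of all tested genes called higher, with a list median of 1.97. Many of them also respond to tumour necrosis factor and Toll-like receptors, so the list is not specific to IL-1. Saa3, an acute phase protein, was at 784 to 3700 normalized counts in Sema3b-/- arthritis, against 5.94 to 17.9 in Sema3b-/- control (log2 fold change 7.51, limma adjusted p = 0.0028). The neutrophil chemokines Cxcl5, Cxcl2 and Cxcl1 rose by 6.31, 5.89 and 5.56 on the log2 scale. In Sema3b-/- control they were at 2.40 to 20.2, 0 to 3.56 and 0 to 7.82 normalized counts. A count of 0 in Sema3b-/- control replicate 1 allows 12.1, so the size of these folds is uncertain. Mmp3, a protease that degrades cartilage matrix, rose by 5.33, and the monocyte chemokine Ccl2 by 4.12. Il6 was at 7.58 to 29.6 normalized counts in Sema3b-/- arthritis, against 0 to 3.60 in Sema3b-/- control (adjusted p = 0.0374), and Tnfaip3, a brake on NF-kB, rose by 1.11.

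In WT arthritis, 5 of the 16 rose, against 2.64% of all tested genes called higher, with a median of 2.45. These were Saa3 (5.19, limma adjusted p = 0.034), Cxcl5 (4.02), Ptgs2, the inducible cyclooxygenase (3.16), Mmp3 (2.96) and Nfkbia, an inhibitor of NF-kB (0.82), given as log2 fold changes. Saa3 was at 12.6 to 3991 normalized counts in WT arthritis, against 6.63 to 33.8 in WT control, so that 1 or more arthritis libraries lay in the control range. Il6 was at 0, 0.436, 57.5, 12.8 and 22.2 normalized counts in WT arthritis and at 0 in all 4 WT control libraries. The mean in WT arthritis, 18.6, was at least 6.52-fold higher when 3 reads per control library are taken as the floor, and at least 3.10-fold higher without WT arthritis replicate 3. With Il6 at that bound the list median was also 2.45. In the comparisons of genotypes and the interaction, no gene of these 5 lists was called.

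Markers of the cell types that carry these genes moved too. The 8 monocyte and macrophage markers, summed, ranged from 6399 to 9234 normalized counts in Sema3b-/- arthritis, against 3117 to 4710 in Sema3b-/- control, with 6 of 8 called higher (Cd14, C1qa, Lyz2, Mrc1, Ccr2 and Emr1), where 6.84% of all tested genes were. In WT arthritis they summed to 4094 to 9277, against 3788 to 4376 in WT control, with 3 of 8 called higher (Lyz2, Mrc1 and Ccr2), where 2.64% of all tested genes were. In the WT arthritis libraries the sums were 4851, 4094, 8684, 9277 and 8002 in replicates 1 to 5. Replicates 1 and 2, low in Il1b, were also the 2 lowest of that group in these markers. Their part in the Il1b result was not tested.

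Mast cells, which carry ST2, were read from 8 markers that summed to 1165 to 2182 normalized counts in Sema3b-/- arthritis, 659 to 1295 in Sema3b-/- control, while WT arthritis had 982 to 2181 and WT control 1147 to 1501. In Sema3b-/- arthritis 3 of the 8, Hdc, Fcer1a and Tpsb2, were called higher, where 6.84% of all tested genes were. In WT arthritis 1 of the 8, Hdc, was called higher, against 2.64%. Cpa3 and Kit were not called in either genotype. Log2 fold changes were positive for 7 of the 8 in Sema3b-/- and 5 of the 8 in WT paws. Kit went the other way, with means of 60.0 in Sema3b-/- arthritis and 84.4 in Sema3b-/- control. Kit was at 32.5 to 50.1 in WT arthritis, below all WT control libraries at 53.7 to 92.9. The 7 neutrophil markers in the table, a cell type known to carry Il1r2, summed to 10912 to 50128 in Sema3b-/- arthritis, 7759 to 39238 in Sema3b-/- control, while WT arthritis had 5669 to 57151 and WT control 7568 to 11786. Of these 7, Cxcr2 alone was called, and at group means of 28.3 to 133 normalized counts it made up little of the sums. It was higher in both arthritis comparisons, where 6.84% (Sema3b-/-) and 2.64% (WT) of all tested genes were called higher. Log2 fold changes were positive for 5 of the 7 in Sema3b-/- and 6 of the 7 in WT paws. Mmp9 was at 917 to 1473 in WT arthritis, below all WT control libraries at 1819 to 2185. Its means were 1763 in Sema3b-/- arthritis and 3904 in Sema3b-/- control. None of the markers in these lists was at 0 throughout a group. Of the 8 fibroblast and synovium markers, Pdpn was called higher in Sema3b-/- arthritis, where 6.84% of all tested genes were. Of the 6 endothelial markers, Vwf and Tek were called lower there, where 12.4% of all tested genes were called in either direction. No skeletal muscle marker and no T or innate lymphoid cell marker was called. The 6 muscle markers had a median log2 fold change of -1.80 in Sema3b-/- and -0.81 in WT paws. The part of these cell types in the results of Il1rl1, Il1r2 and Il33 was not tested.

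**Figure D5:**
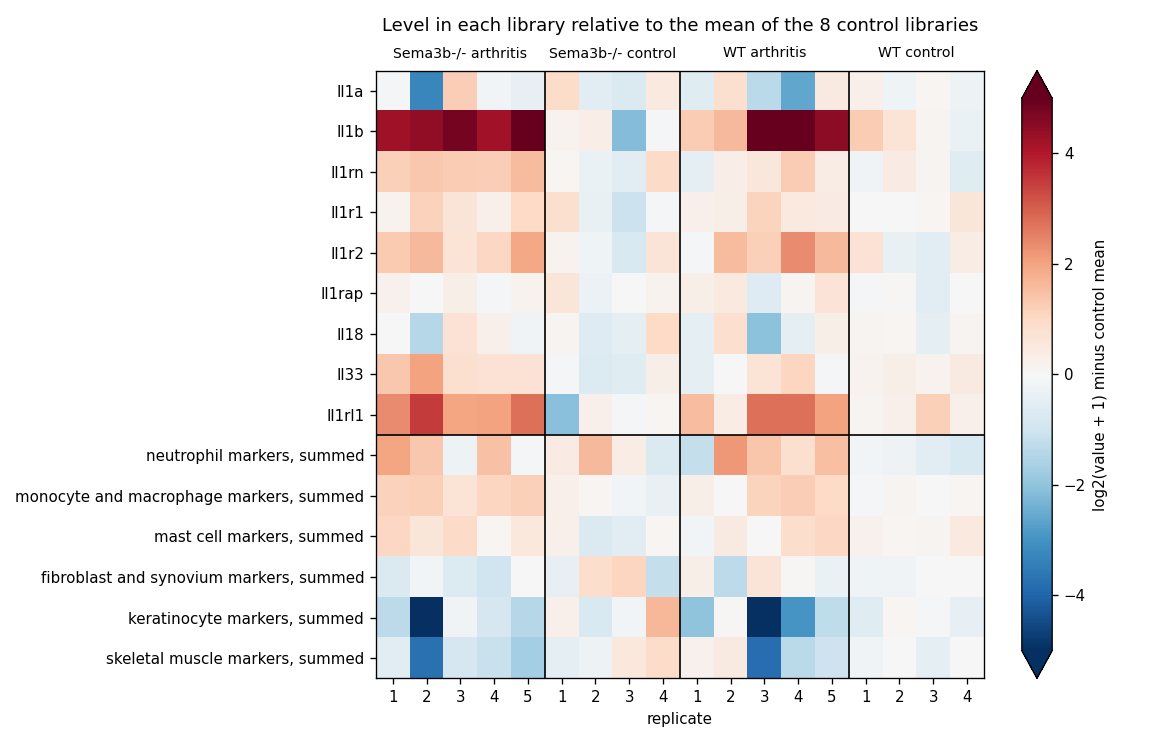
Level of each of the 9 genes and of 6 summed marker lists in each of the 18 libraries, as log2(value + 1) minus the mean of the 8 control libraries (colour, limited to 5 in either direction); columns are replicates within groups. Il1b, Il1rl1 and the monocyte and macrophage markers are high in all 5 Sema3b-/- arthritis libraries and in WT arthritis replicates 3 to 5, and Il1a is lowest in the 3 libraries with the lowest keratinocyte sums.

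The genes most like each member were named by Pearson's r of log2(normalized count + 1) over the 18 libraries, as a description in which all values share the libraries and their scaling. For Il1b they were Arpc3 (r = 0.97), Ccl8 (0.96) and Fcgr2b (0.96), and over the 10 arthritis libraries alone these were 0.95, 0.91 and 0.87. For Il1rl1 they were Pdpn (0.95), Csgalnact1 (0.94) and Gm11110 (0.94), with 0.97, 0.96 and 0.84 over the arthritis libraries. Il33 was most like Rap2b (0.86), Gcnt2 (0.86) and Fbxl5 (0.85), and Il1rn most like Cstb (0.91), Atp6v1a (0.89) and Chl1 (0.88). Il18 had the closest partners outside Il1b, with Srpk1 (0.96), Ggct (0.96) and Slc6a14 (0.95), and Il1a had Spink7 (0.91), Mfap3l (0.91) and Car6 (0.90). For both, values were 0.92 or more over the arthritis libraries, which are part of the 18 used to pick the partners and give no separate check. Il1r2 was most like Gnb2l1, Rps3 and Psma7 (0.90, 0.90 and 0.89). Il1r1 was most like Lrp12, Pbx3 and Rbm7 (0.86, 0.83 and 0.83), and Il1rap like Hsd17b10, Mrpl18 and Fkbp2 (0.81, 0.79 and 0.74). Over the arthritis libraries alone, r was 0.86, 0.48 and 0.63 for the 3 partners of Il1r1 and 0.74, 0.65 and 0.77 for those of Il1rap. It was 0.82, 0.81 and 0.73 for those of Il1r2, 0.80, 0.85 and 0.81 for those of Il33 and 0.84, 0.84 and 0.84 for those of Il1rn. None of the 27 partners is another member, since members were left out of this search.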

How the data were processed

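Forepaw RNA of 18 libraries was sequenced by CEL-seq, per the labels' protocols. BWA, DESeq2 1.32 and mm10 are named in the submitters' processing notes, while the counter, the annotation and any use of molecular barcodes are not stated there. In the table deposited by the authors, each library has a signal called here the normalized count, which is the read count of a gene after division by the size factor of its library. The authors also deposited log2 fold changes, p-values and adjusted p-values, which were read only where named. Whole reads were recovered from the deposited values, within 0.02 of a read for 100% of values.

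The planned fallback for values that are not raw counts, limma-trend (limma 3.58.1, R 4.3.3) with robust empirical Bayes on log2(value + 1), was the main test. One fit over the 18 libraries had a mean for each of the 4 groups and no covariates. Genes at 10 or more in at least 4 libraries were tested, 13809 of 18585. Fold changes on the log2(value + 1) scale understate those of low genes. Calls are Benjamini-Hochberg adjusted p under 0.05 over all genes tested. On recovered reads, edgeR 4.0.16 called 1623 genes in Sema3b-/- arthritis and 742 in WT arthritis. The script was tested on simulated data. Total reads were 1732783 to 19464892, and limits from counts of 0 cover counting error only.

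Members and lists were chosen with earlier results of these data known. Named genes are the 9 members, called list genes (to reach 3, those with the lowest p in Sema3b-/- arthritis), and the 3 genes with the highest r to each member. Adgre1 was read as Emr1, and IL-36 genes under their older symbols. Groups follow the labels' genotype and treatment. Replicates 3 and 4 of Sema3b-/- control both carry a 3 inside their titles, so replicate 4 is a number given here. One library, Sema3b-/- arthritis replicate 5, has a column name with the ending Ct but a title and treatment label of arthritis, and was kept with arthritis. Nothing in the labels says that libraries are separate animals, so p-values measure the spread between libraries. No 2 of the 32 pairs of libraries within groups were alike within sampling noise, with 9.59 to 197 for chi-square over its degrees of freedom. Gene positions are from GENCODE vM21, 1-based, and promoter sequences from RefSeq.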

Additional observations from a re-analysis of the deposited data

Results flagged for a closer look

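Of 36 sets of values, each 1 gene in 1 group, 4 held a library far from the others by Dixon's test, and chance gives about 1 in 20. Il1r1 was at 174 normalized counts in WT arthritis replicate 3, above the other 4 libraries of its group at 94.6 to 111. Il1r1 was at 123 in WT control replicate 4, against 79.6 to 86.3 in the other 3. Il18 was at 197 in WT control replicate 3, below the other 3 at 285 to 296. Il1rl1 was at 125 in WT control replicate 3, against 59.7 to 65.0 in the other 3. Leaving out WT control replicate 3, WT control replicate 4 or WT arthritis replicate 3 changed no call of Il1r1, Il18 or Il1rl1 in WT arthritis against WT control.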

How the results depend on the processing

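The settings tried beside the main one were TMM and total read scaling of recovered reads, edgeR and DESeq2 on recovered reads, a pseudocount of 10, no filter, a filter at 30, only the groups compared, a replicate block, a sex term and leaving out each library in turn. A term for the title form was fitted for Sema3b-/- arthritis against WT arthritis alone, and only the groups compared for the comparisons of 2 groups. In Sema3b-/- arthritis against Sema3b-/- control, 4 or 5 of the 9 members were called under the 10 settings other than leaving out a library, and 3 to 5 with a library left out, 3 without Sema3b-/- control replicate 3. Il1r2 was the member lost, with total read scaling (adjusted p = 0.0514), no filter (0.0534) and the block (0.0716). In WT arthritis against WT control, where 1 member was called, 0 were called with total read scaling, with no filter, with only the groups compared, with the replicate block and with the sex term, and 3 with DESeq2, which added Il1r2 and Il1rl1. With a library left out the count was 0 to 2. The adjusted p of Il1b in WT arthritis against WT control was 0.0555 with total read scaling, 0.0539 with no filter, 0.133 with only the groups compared, 0.134 with the block and 0.263 with the sex term. For Il33 over both genotypes, total read scaling gave an adjusted p of 0.0776 and ended the call. In the genotype comparisons and the interaction 0 members were called under the settings run for each. The cause of these changes was not tested. Calls of pathway list genes and cell type markers were read in the main fit only, so their dependence on the settings is not known.

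Over all genes, the count called in WT arthritis against WT control was 582, against 1292 with DESeq2, 271 with only the groups compared, 196 with the block, 133 with the sex term and 149 to 1111 with a library left out. The count in Sema3b-/- arthritis against Sema3b-/- control was 1710, against 998 with only the groups compared, 1020 with the block and 978 to 1913 with a library left out. DESeq2 called 92 genes between arthritic paws, where limma called 3, and 77 over both treatments, where limma called 9. Total read scaling moved the median of all genes by -0.21 in WT arthritis, 0.09 in Sema3b-/- arthritis, 0.19 between arthritic paws and -0.12 between control paws. In WT arthritis it changed the higher and lower calls to 52 and 765, against 364 and 218. For Sema3b-/- arthritis they were 960 and 492, against 944 and 766, and over both genotypes 1057 and 1953, against 1737 and 1510.

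Directions that turned did so for log2 differences near 0 or with wide intervals. In WT arthritis against WT control, Il33 was at 0.084 with edgeR, 0.069 with DESeq2, 0.056 with the replicate block and 0.10 with the sex term, and -0.24 to 0.14 with a library left out, while Il18 was at -0.67 to 0.053. For Sema3b-/- arthritis against Sema3b-/- control, Il1rap was at 0.0069 with TMM, 0.084 with total read scaling, 0.016 with edgeR and 0.020 with DESeq2. With a library left out Il1rap was at -0.15 to 0.15, Il1a at -0.99 to 0.13 and Il18 at -0.36 to 0.18. In Sema3b-/- control against WT control, total read scaling gave -0.066 for Il1a, -0.015 for Il1rn and -0.10 for Il18, and leaving out a library gave -0.24 to 0.31 for Il1a, -0.20 to 0.30 for Il1rn, -0.32 to 0.15 for Il1r2 and -0.30 to 0.24 for Il18. In Sema3b-/- arthritis against WT arthritis, Il1a was at -0.16 with the sex term, Il1b at -0.21 with edgeR and -0.21 with DESeq2, Il1r2 at 0.18 with total read scaling and 0.24 with the sex term, and Il1rap at 0.12 with total read scaling. With a library left out they were -0.35 to 0.82 for Il1a, -0.37 to 0.24 for Il1r2, -0.27 to 0.056 for Il1rap and -0.17 to 0.57 for Il18.

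Replicate numbers did not pair the libraries: of 25 pairs with the same number, 7 had a correlation of deviations over 0.1 (-0.66 to 0.41), and 3 of 18 libraries correlated best with one of their own number. With the replicate block, 4 members were called in Sema3b-/- arthritis and 0 in WT arthritis. Depth limits low genes most in Sema3b-/- control replicate 1, where a count of 0 allows 12.1 normalized counts.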
